A study of Mus musculus with 20 samples.

Results

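The 4 dopamine receptor genes Drd1, Drd2, Drd3 and Drd5 were examined in the striatum of mice bred for high home cage activity and of their controls. They were picked by symbol from the 39179 genes in each deposited count list, and all 4 passed the expression filter, which left 14792 genes for testing. Dopamine acts on G protein-coupled receptors of 2 classes. The D1-like receptors, encoded by Drd1 and Drd5, couple to stimulatory G proteins and raise cAMP. The D2-like receptors, encoded by Drd2 and Drd3, couple to inhibitory G proteins and lower it. In the striatum Drd1 is known for marking medium spiny neurons of the direct output pathway and Drd2 those of the indirect pathway. Drd2 is also made by cholinergic interneurons, Drd3 is enriched in the ventral striatum, and Drd5 is a scarce transcript known from cholinergic interneurons and other cells.

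RNA was sequenced from 20 adult males of generation 17, about 6.5 months old, from a High-Active line selected for home cage activity and an unselected Control line, both derived from an intercross of 8 inbred strains. Each mouse received an intraperitoneal injection of saline or of 0.25 mg/kg d-amphetamine sulfate, and tissue was taken 2 hours later. Crossing the lines with the injections gave 4 groups of 5 mice, named below by line and injection (for example, Control saline). Each library came from both dorsal and ventral striatum of one mouse, and its gene counts summed to between 32388971 and 53710713 (median 41703854).

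There was 1 line of each kind, so selection and drift cannot be told apart, and by the sire and dam in the labels 9 of 10 High-Active and 4 of 10 Control mice had a full sibling in the same line. The study's methods instead describe the mice as coming from separate families, and the labels were followed here. Test p-values therefore describe the spread between these mice. The dissected tissue varied in its content of cortical RNA. The summed level of 10 cortical excitatory neuron markers ran from 298 to 836 CPM (counts scaled to library size) in Control mice and from 163 to 972 CPM in High-Active mice, with medians of 673 and 323 CPM. No marker of the list was at 0 in either line. In bulk tissue, fewer cells of a type and less RNA per cell cannot be told apart. The tissue label was matched by the medium spiny neuron genes: Drd1 and Drd2 stood at ranks 570 and 798 of 14650 genes in CPM per kilobase of exon.

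Sequence just upstream of the annotated start is shown for the 3 receptors whose RefSeq and GENCODE starts lie close together, because the line difference described below fell on one of them. The bases come from RefSeq (GRCm38.p6), run 5′ to 3′ on the gene's strand and stop before the first annotated exon. Capitals mark the GC box letters GGGCGG or their reverse complement, the core bound by Sp1-type factors.
Drd1, chr13:54055706-54055908, minus strand: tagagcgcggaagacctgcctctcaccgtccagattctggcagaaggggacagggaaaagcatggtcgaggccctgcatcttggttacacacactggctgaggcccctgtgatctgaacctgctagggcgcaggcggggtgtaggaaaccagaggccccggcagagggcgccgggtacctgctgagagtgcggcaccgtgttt
Drd2, chr9:49340153-49340402, plus strand: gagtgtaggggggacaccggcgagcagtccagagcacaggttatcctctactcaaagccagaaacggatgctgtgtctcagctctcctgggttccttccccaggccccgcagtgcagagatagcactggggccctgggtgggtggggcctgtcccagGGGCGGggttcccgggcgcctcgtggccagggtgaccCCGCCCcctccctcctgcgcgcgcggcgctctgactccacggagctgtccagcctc
Drd5, chr5:38319259-38319366, plus strand: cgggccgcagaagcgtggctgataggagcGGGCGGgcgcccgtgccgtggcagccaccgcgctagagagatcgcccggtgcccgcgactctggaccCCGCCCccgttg

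The Drd5 stretch of 108 bases was 75.9% G and C and held 2 GC boxes, a motif found in 11.4% of all 32851 RefSeq promoter windows at the same offset and length. The Drd2 stretch of 250 bases was 68.8% G and C and also held 2, against 32.7% of windows. The Drd1 stretch of 203 bases was 62.6% G and C and held 0, against 25.2%. Searched on both strands, the TATA box TATAAA had 0 matches in the 3 stretches, and so had the cAMP response element core TGACG. The E-box, which has the letters CANNTG, had 0 matches as well. Over all windows at these lengths, 5.54 to 12.4% held the TATA box, 5.8 to 17.8% TGACG and 38.5 to 66.2% an E-box. The Drd1 and Drd5 stretches stop 47 and 142 bases short of the RefSeq start, and the bases between were not searched. A match of letters is a description and not a bound site.

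The receptors fell into an abundant and a scarce pair. Per kilobase of exon, the mean over 20 mice was 63.4 ± 9.97 CPM for Drd1 and 49.3 ± 7.12 CPM for Drd2 (SD). It was 1.37 ± 0.485 CPM for Drd3 and 1.06 ± 0.299 CPM for Drd5 on the same scale. The ranges of Drd1 (46.9 to 79.2) and Drd2 (35.5 to 60.4) overlapped, as did those of Drd3 (0.521 to 2.34) and Drd5 (0.546 to 1.62), so neighbours in this order were not separated mouse by mouse. Between the pairs there was no overlap. Reads per mouse numbered 5597 to 13352 for Drd1, 3180 to 6715 for Drd2, 28 to 161 for Drd3 and 69 to 268 for Drd5. Counting error alone would give a coefficient of variation of 1.05%, 1.41%, 11.0% and 8.91%, against 15.7%, 14.5%, 35.5% and 28.2% between the 20 mice, so the spread between mice was the larger for each receptor.

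**Figure D1:**
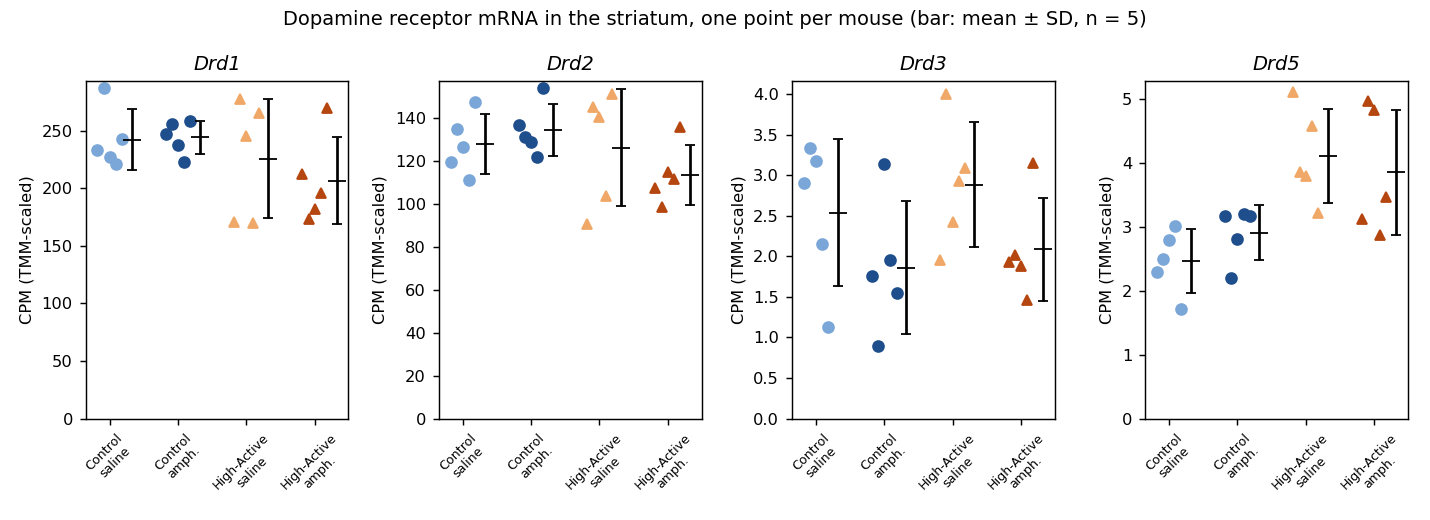
CPM of each receptor (vertical axes from 0) in the 4 groups, one point per mouse, with mean and SD (n = 5) at the right of each group. For Drd5, 8 of 10 High-Active mice lie above every Control mouse, and the ranges of the lines overlap for all 4 receptors.

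Among the D1-like receptors, Drd5 was higher in the High-Active line. Drd5 (ENSMUSG00000039358) lies at chr5:38319367-38322518 on the plus strand of GRCm38 as 1 exon of 3152 bases. In Control saline mice its CPM was 2.29, 2.50, 2.80, 3.02 and 1.72, and in Control amphetamine mice 3.17, 2.20, 2.82, 3.2 and 3.18. In High-Active saline mice it was 5.12, 3.86, 3.798, 4.58 and 3.22, and in High-Active amphetamine mice 3.13, 4.98, 4.83, 2.88 and 3.47. Of 10 High-Active mice, 8 lay above every Control mouse and all 10 above the Control median, and the 2 that did not clear the highest Control mouse were both given amphetamine. The lowest of the 8, at 3.22 CPM, stood close to that Control mouse at 3.2 CPM. Over all genes tested, 2.03% had at least 8 High-Active mice beyond every Control mouse on one side.

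The mean of Drd5 was 2.69 ± 0.499 CPM in Control and 3.99 ± 0.830 CPM in High-Active mice (SD, n = 10 each). In edgeR's quasi-likelihood test the line difference, High-Active minus Control over both treatments, was 0.57 ± 0.13 on the log2 scale (SE), a fold of 1.48, with a 95% interval of 0.30 to 0.84 and a false discovery rate (FDR) of 0.013. At the FDR threshold of 0.1 the line effect was called for 14.5% of all genes, 7.63% higher and 6.9% lower, and Drd5 stood at rank 349 by p. It was the 1 receptor of 4 that passed. The difference was 0.74 ± 0.18 in saline mice (FDR 0.051), where 3.74% of all genes were called, and 0.40 ± 0.18 in amphetamine mice (FDR 0.37), where 1.3% were. The interaction, which tests whether these differ, was -0.34 ± 0.26 with an interval of -0.88 to 0.20. The 10 cortical markers had a median line difference of -1.19 in saline mice and -0.26 in amphetamine mice. Its part in the Drd5 differences within each treatment was not tested.

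The Drd5 call was lost when the cortical marker level of each mouse was added to the fit. The line difference then was 0.34 ± 0.13 (95% interval 0.078 to 0.61, FDR 0.22). The cortical marker score itself was lower in High-Active mice by 0.67 log2 units (two-sided permutation p = 0.043). Over 7 other ways of processing the counts the Drd5 difference ran from 0.34 to 0.57 with an FDR of 0.0013 to 0.22, and the cortical adjustment gave the low end. An antisense gene, Gm26560, overlaps the Drd5 exon, and 41 counts were assigned to it over all 20 mice. The strand setting of the counting is not given, so reads of this pair may not be fully separated.

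Drd1, the D1-like receptor of the direct pathway, was not called in any edgeR comparison. Drd1 (ENSMUSG00000021478) lies at chr13:54051183-54055705 on the minus strand, with 3628 exon bases. Control saline mice had 233, 287, 227, 221 and 243 CPM and Control amphetamine mice 247, 256, 238, 223 and 259 CPM. High-Active saline mice had 171, 277, 245, 170.0 and 266 CPM and High-Active amphetamine mice 212, 173, 182, 196 and 270 CPM. The High-Active mice were more scattered, from 170.0 to 277 CPM, against 221 to 287 CPM in Control mice. The line means were 243 ± 20.1 CPM in Control and 216 ± 44.1 CPM in High-Active mice (SD, n = 10 each), a log2 difference of -0.17 ± 0.096 with an interval of -0.37 to 0.029 and an edgeR FDR of 0.27.

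Drd2, the D2-like receptor of the indirect pathway, showed the same spread among High-Active mice. Drd2 (ENSMUSG00000032259) lies at chr9:49340627-49408177 on the plus strand, with 2547 exon bases. Control saline mice had 120, 135, 127, 111 and 148 CPM and Control amphetamine mice 137, 131, 129, 122 and 154 CPM. High-Active saline mice had 90.5, 145, 140.3, 104 and 151 CPM and High-Active amphetamine mice 107, 98.4, 115, 111 and 136 CPM. The High-Active mice ran from 90.5 to 151 CPM, against 111 to 154 CPM in Control mice. The line means were 131 ± 12.9 CPM in Control and 120 ± 21.4 CPM in High-Active mice, a log2 difference of -0.13 ± 0.087 with an interval of -0.32 to 0.051 and an edgeR FDR of 0.36.

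Drd3, the D2-like receptor of the ventral striatum, varied most between mice of 1 line. Drd3 (ENSMUSG00000022705) lies at chr16:43754026-43822932 on the plus strand, with 1712 exon bases. Control saline mice had 2.90, 3.34, 3.18, 2.15 and 1.13 CPM and Control amphetamine mice 1.76, 0.891, 3.14, 1.96 and 1.54 CPM. High-Active saline mice had 1.96, 4.01, 2.43, 2.93 and 3.09 CPM and High-Active amphetamine mice 1.93, 2.01, 1.88, 1.46 and 3.15 CPM. The lines overlapped, with 0.891 to 3.34 CPM in Control and 1.46 to 4.01 CPM in High-Active mice. The line means were 2.20 ± 0.891 and 2.48 ± 0.785 CPM, and the log2 difference was 0.17 ± 0.22 with an interval of -0.28 to 0.63 and an edgeR FDR of 0.65. This interval reaches the size of the Drd5 difference, so a Drd3 difference of that size could not be told from none with this spread between mice.

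**Figure D2:**
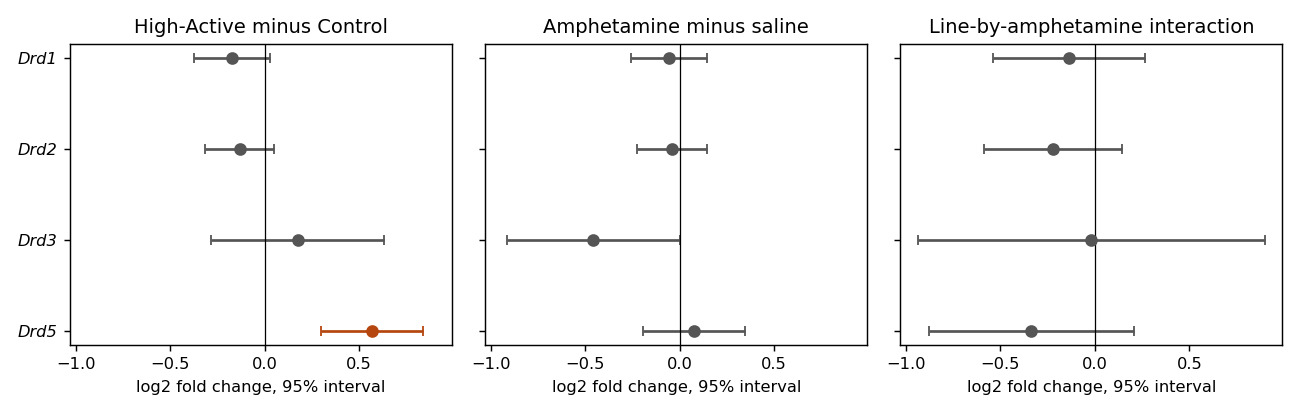
Log2 fold change of each receptor with its 95% interval (horizontal axis) for the line effect, the amphetamine effect and their interaction in the edgeR fit of 20 mice. The Drd5 line effect of 0.57 (orange) passes an FDR of 0.1 and no other point does.

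Amphetamine changed no receptor past the threshold 2 hours after injection. Over all genes, edgeR's quasi-likelihood test called 0.0% for the amphetamine effect, with 1844 of 14792 at an unadjusted p under 0.05, while 458 were called by the likelihood-ratio test with robust dispersions and 391 by DESeq2, none of them a receptor. Amphetamine minus saline was -0.057 ± 0.096 for Drd1, -0.041 ± 0.087 for Drd2 and 0.074 ± 0.13 for Drd5, on the log2 scale with SE. For Drd3 it was -0.46 ± 0.22, with an interval of -0.92 to 0.0022, an unadjusted edgeR p of 0.051 and an FDR of 0.40. The group means of Drd3 were 2.54 ± 0.908 and 1.86 ± 0.819 CPM in saline and amphetamine Control mice, and 2.88 ± 0.769 and 2.09 ± 0.632 CPM in the High-Active line.

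Ventral striatum and cortical marker values are given beside Drd3. All 7 ventral striatum markers tested had lower values with amphetamine, with a median log2 difference of -0.38 against -0.0067 over all genes, and the 10 cortical markers had a median of 0.91. None of these markers passed in edgeR's quasi-likelihood test, but the likelihood-ratio test called 4 of 7 ventral markers lower and 6 of 10 cortical markers higher, and DESeq2 called 0 and 5. Leaving out a mouse gave 0 to 1 ventral and 0 to 6 cortical calls. With the cortical marker level in the fit, the Drd3 difference was -0.22 ± 0.28 and that of Drd5 was 0.32 ± 0.13 (FDR 0.98). The part of tissue makeup in these values was not tested further.

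The interaction was called for 0.0% of genes, with 440 at an unadjusted p under 0.05 in edgeR's quasi-likelihood test, 6 called by the likelihood-ratio test and 0 by DESeq2. It was -0.14 ± 0.19 for Drd1, -0.22 ± 0.17 for Drd2 and -0.019 ± 0.44 for Drd3. The labels name parents, which gave 6 families with both treatments, 4 High-Active and 2 Control, so averages over them weigh the High-Active line more. Within them, amphetamine minus saline averaged -0.13 for Drd1, -0.071 for Drd2, -0.60 for Drd3 and -0.0050 for Drd5, with exact two-sided sign permutation p-values of 0.50, 0.66, 0.19 and 1. The smallest p that 6 families allow is 0.031. Single families were widely split, for Drd1 from -0.62 to 0.66.

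The balance of D1 to D2 receptor mRNA did not differ detectably between the lines. Reads for Drd1 per read for Drd2 were 1.65 to 2.13 in Control mice (mean 1.86 ± 0.146) and 1.59 to 1.99 in High-Active mice (mean 1.803 ± 0.136). The log2 ratio differed by -0.048 (two-sided permutation p = 0.34, adjusted over 4 such tests 0.47). Across the 20 mice, after group means were subtracted, log2 CPM of Drd1 and Drd2 were closely related (r = 0.87, rho = 0.83, permutation p = 0.00039 and 0.00048, adjusted over the 6 receptor pairs 0.0023 and 0.0029, and r = 0.84 once the 2 mice most distant in Drd1 were left out). The mice lowest in both were High-Active mice of either injection. Drd5 was negatively related to Drd1 (r = -0.54, adjusted permutation p = 0.051, and rho = -0.65, adjusted p = 0.019).

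**Figure D3:**
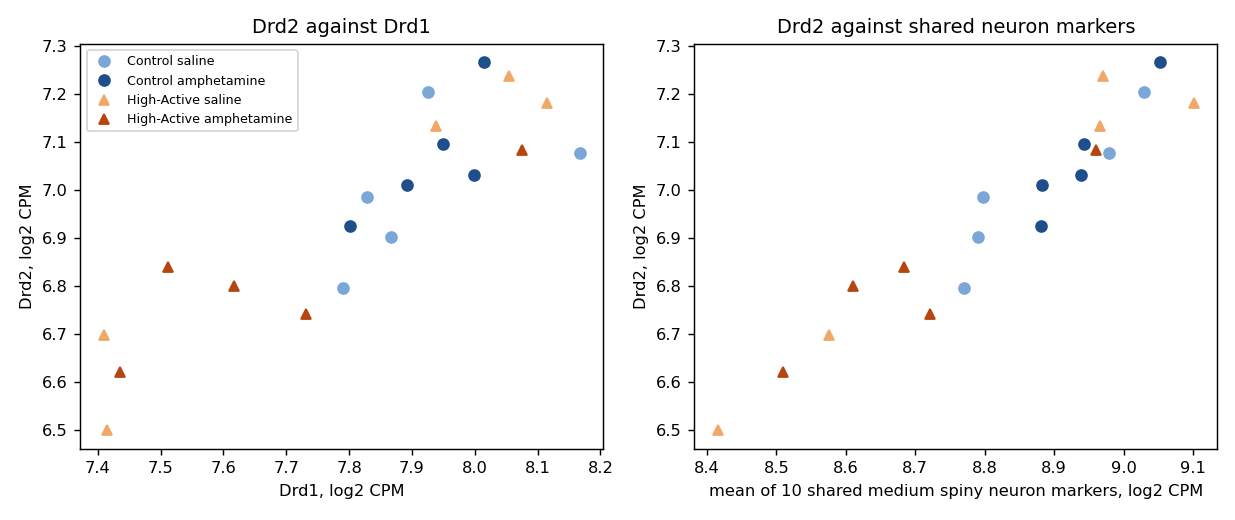
Log2 CPM of Drd2 per mouse (vertical axes) against Drd1 (left) and against the mean of 10 shared medium spiny neuron markers (right), with the 4 groups by colour. Within groups r was 0.87 and 0.95, and the lowest mice belong to the High-Active line.

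Both abundant receptors followed the shared markers of medium spiny neurons, a list of 10 genes such as Pde10a, a striatal phosphodiesterase, and Bcl11b, a transcription factor. The correlation over 20 mice was 0.93 for Drd1 (rho 0.91, adjusted permutation p 0.0016 over 40 receptor and marker relations) and 0.95 for Drd2 (rho 0.92, adjusted p 0.0008). Leaving out the 2 most distant mice gave r of 0.91 and 0.94. These relations were chosen after the values were seen. Relative to those markers, the lines differed by -0.038 log2 units for Drd1 (two-sided permutation p = 0.35), 0.0097 for Drd2 (p = 0.74) and 0.39 for Drd3 (p = 0.13), none past 0.05. Drd5, a measure added after its values were seen, differed by 0.71 (permutation p = 6e-05). Drd5 did not follow these markers: its relation to them was negative (r = -0.52, rho = -0.57, adjusted permutation p 0.079 and 0.078). The markers were lower in High-Active mice (list median -0.13), so the 0.71 holds their difference as well as that of Drd5. It is not adjusted for the cortical marker level. Against 9 direct pathway markers in place of the shared ones, Drd1 differed by -0.18 (unadjusted permutation p = 0.030). Drd1 followed those markers less closely (r = 0.64, and 0.45 without the 2 most distant mice), so they are a weaker reference.

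The genes most like Drd2 across mice were Adcy5 (r = 0.97), the main striatal adenylyl cyclase, then Pde1b, Smpd3, Rasd2 and Adora2a (0.94), the adenosine receptor of the same indirect pathway neurons. The measure was Pearson r of log2 CPM after group means were subtracted, over 20 mice and 11439 genes with a mean of at least 5 CPM. Those most like Drd1 were Rarb (r = 0.94), a retinoic acid receptor, then Gripap1, Lingo3, Elmod1 and Klhl2 (0.92). Pde1b, Rasd2 and Rarb are also on the list of shared markers. Neither receptor was related to its own pathway alone. With the indirect and the direct pathway markers, r was 0.80 and 0.68 for Drd2, and 0.72 and 0.64 for Drd1. The adjusted permutation p was 0.0045, 0.048, 0.045 and 0.051 in that order, and by rank 0.006, 0.090, 0.080 and 0.090. For the scarce receptors, taken up after the data were seen, the leading genes were Ntn1 (r = 0.85), a guidance cue, for Drd3 and Grb10 (r = 0.89), a growth factor receptor adaptor, for Drd5.

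The scarce receptors were related to other marker lists. Drd3 was positively related to 7 ventral striatum markers (r = 0.80, rho = 0.68, adjusted permutation p 0.014, r = 0.63 without the 2 farthest mice). Drd5 was positively related to 5 cholinergic interneuron markers (r = 0.62, rho = 0.60, adjusted permutation p 0.045, r = 0.62 without 2 mice). It was negatively related to the 10 cortical markers (r = -0.66, rho = -0.61, adjusted permutation p 0.045, r = -0.53 without 2 mice). By rank the adjusted p of the cholinergic and cortical relations of Drd5 was 0.077 and 0.078. With 6 choroid plexus markers Drd5 had an r of 0.57 and a rho of 0.58 (adjusted permutation p 0.070 and 0.078, r = 0.47 without 2 mice). With 6 astrocyte markers Drd5 had a rho of 0.67 (adjusted permutation p 0.029) and an r of 0.50 (adjusted p 0.089, r = 0.60 without 2 mice). Drd1 was negatively related to the astrocyte markers (r = -0.79, rho = -0.82, adjusted permutation p 0.0016 and 0.004, r = -0.70 without 2 mice).

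**Figure D4:**
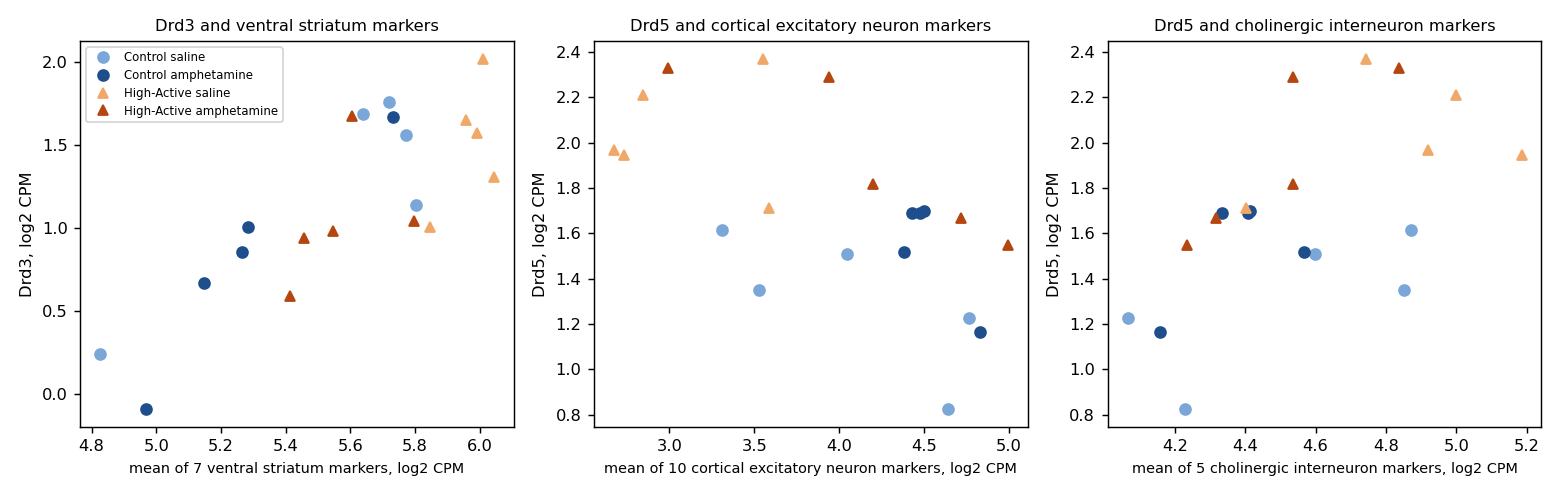
Log2 CPM per mouse of Drd3 against 7 ventral striatum markers, and of Drd5 against 10 cortical excitatory neuron and 5 cholinergic interneuron markers (mean log2 CPM on each horizontal axis). Within groups r was 0.80, -0.66 and 0.62, and High-Active mice (triangles) lie above most Control mice for Drd5.

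The same marker lists are given between the lines, to be read against the 7.63% of all genes called higher and 6.9% called lower. All 5 cholinergic markers tested were higher in High-Active mice, by a median of 0.19 against -0.00093 over all genes, and 1 passed, Ecel1 (0.39 ± 0.14, FDR 0.089). Their summed level was 111 to 188 CPM in Control and 125 to 242 CPM in High-Active mice, with none at 0. The direction of these 5 markers depended on the fit. With the cortical marker level included, 4 of the 5 were lower in High-Active mice, with a median of -0.078. Of 10 cortical markers 3 were lower: Neurod2 (-0.91 ± 0.29, FDR 0.057), a transcription factor, Slc17a7 (-0.85 ± 0.29, FDR 0.073), the vesicular glutamate transporter of cortical neurons, and Tbr1 (-0.69 ± 0.25, FDR 0.095). Of 7 ventral striatum markers 2 were higher, Peg10 (0.57 ± 0.19, FDR 0.068) and Nts, the neuropeptide neurotensin (0.59 ± 0.20, FDR 0.076), and their summed level was 424 to 865 CPM in Control and 542 to 943 CPM in High-Active mice, with none of those tested at 0. These counts rest on single mice: leaving out a mouse gave 0 to 1 cholinergic, 0 to 6 cortical and 0 to 3 ventral calls.

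Markers of the neurons carrying the abundant receptors had small line differences. Of 9 direct pathway markers none passed, with Slc35d3 at -0.22 ± 0.10 (FDR 0.18) and Isl1 at 0.21 ± 0.10 (FDR 0.21), and of 8 indirect pathway markers none passed, with Upb1 at -0.30 ± 0.20 (FDR 0.35) and Adora2a at -0.12 ± 0.083 (FDR 0.39). Of 10 shared markers 2 were lower, the transcription factor Meis2 (-0.26 ± 0.074, FDR 0.038) and the small GTPase Rasd2 (-0.29 ± 0.093, FDR 0.059), with a list median of -0.13. Of glial markers, 2 of 8 oligodendrocyte genes (Mobp, Mbp) and 3 of 6 astrocyte genes (Aldh1l1, Gja1, Aldoc) were higher, and 2 of 6 microglia genes (Aif1, Csf1r) were lower. Over all genes, 7.63% were called higher and 6.9% lower. Leaving out a mouse gave 1 to 3 oligodendrocyte genes higher, 2 to 4 astrocyte genes higher, 1 to 2 microglia genes lower and 1 to 4 shared neuron markers lower. None of 6 choroid plexus genes passed, with Otx2 at 0.92 ± 0.46 (FDR 0.21) and Kl at 0.61 ± 0.48 (FDR 0.45). All 6 had higher values in High-Active mice, with a median of 0.89. With the cortical marker level in the fit the median was 0.15, and 2 of 6 were lower. Their summed level was widely spread, from 21.9 to 739 CPM in Control and from 32.45 to 908 CPM in High-Active mice.

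Downstream of the receptors, the line effect was called for 8 of 58 signalling genes tested, all lower in High-Active mice. That is 13.8%, close to the 14.5% of all genes called in either direction, so the number called is not particular to these genes. All 8 fell on the lower side, where 6.9% of all genes were called. This lean was not tested. Of 16 G protein and adenylyl cyclase genes 3 were lower: Adcy9 (-0.29 ± 0.077, FDR 0.030) and Adcy1 (-0.49 ± 0.15, FDR 0.055), both cyclases, and Gnaz (-0.17 ± 0.052, FDR 0.056), an inhibitory G protein subunit. Of 12 protein kinase A genes 2 were lower, the phosphoproteins Arpp21 (-0.28 ± 0.078, FDR 0.037) and Arpp19 (-0.25 ± 0.089, FDR 0.084). Of 14 desensitization genes 2 were lower, Rgs14 (-0.24 ± 0.078, FDR 0.061) and Rgs4 (-0.27 ± 0.095, FDR 0.083), which speed the shutting off of G proteins. Of 16 binding and trafficking genes 1 was lower, Grin1 (-0.13 ± 0.048, FDR 0.092), the obligatory NMDA receptor subunit.

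The list medians lay between -0.063 and -0.024, against -0.00093 over all genes. The central transducers of striatal dopamine signalling, named here for their role and after their values were seen, did not pass: Gnal, the stimulatory G protein subunit of medium spiny neurons (-0.16 ± 0.086, FDR 0.26), Adcy5 (-0.15 ± 0.083, FDR 0.26) and Ppp1r1b, the DARPP-32 phosphoprotein (-0.15 ± 0.091, FDR 0.30). The number of signalling genes called lower depended on single mice. It was 2 without High-Active amphetamine replicate 2, 4 without High-Active amphetamine replicate 3 or Control saline replicate 5, and 5 without Control amphetamine replicate 1 or 5, Control saline replicate 1 or High-Active saline replicate 1 or 4. Across all 20 omissions 2 to 11 were lower and 0 to 2 higher, and DESeq2 called 10 lower and 2 higher. With the cortical marker level in the fit, 0 of these signalling genes and 0 of the neuronal markers were called by edgeR's quasi-likelihood test.

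**Figure D5:**
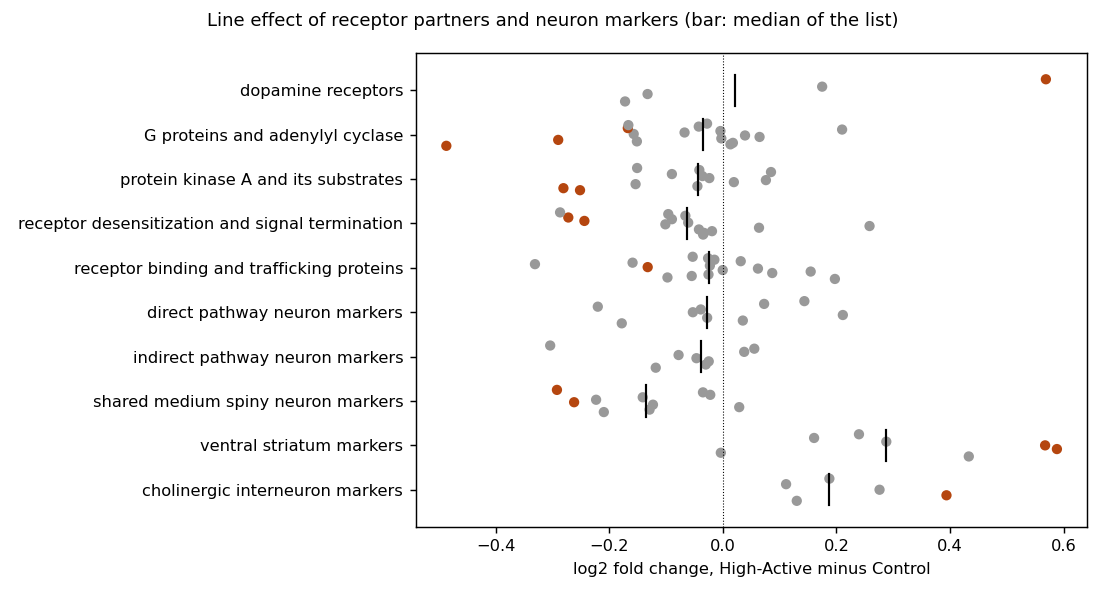
Log2 line difference (horizontal axis) of each gene in the receptor, signalling and marker lists, orange where it passes an FDR of 0.1, with the list median as a bar. The 8 signalling genes that pass in this fit are lower in High-Active mice, a count that ran from 2 to 11 when a mouse was left out, and Drd5 is the receptor that passes.

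Of 11 genes tested within 1000000 bases of Drd5 none was called, and their line differences ranged from -0.078 (Stx18) to 0.29 (Evc2) on the log2 scale. Around Drd1 2 of 20 were called, around Drd2 4 of 12 and around Drd3 3 of 15, against 14.5% of all genes. These neighbourhoods were chosen after the values were seen. Within each line, no relation of a receptor to the distance a mouse ran at re-phenotyping passed the test. The strongest of 8 relations was Drd5 in Control mice (r = -0.46, rho = -0.55, permutation p = 0.18 and 0.10, adjusted 0.86 and 0.66, r = -0.19 without the 2 farthest mice).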

How the data were processed

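Stranded TruSeq libraries were sequenced as 100-base read pairs. According to the submitters' processing notes and the study's methods, the authors used CASAVA 1.8.2, TopHat2 2.0.10, Bowtie2 2.1.0 and SAMtools 0.1.19 against GRCm38, and HTSeq 0.6.1 to make the deposited counts per Ensembl gene; the strand setting of the counting is not given in the sources used here. HTSeq's summary lines (no feature 8.17 to 9.55%, ambiguous 1.39 to 1.66%, not unique 5.70 to 7.01%) were left out.

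Genes over 1 CPM in at least 3 mice were kept, scaled by TMM and tested with edgeR 4.0.16 (glmQLFit, glmQLFTest, R 4.3.3), with 1 mean per group and Benjamini-Hochberg FDR over all genes tested at 0.1. CPM are TMM-scaled. Levels per kilobase use GENCODE M21 exon unions. Symbols came from the reference table for 37607 of 39179 IDs. Single values were compared by permutation (100000 resamples, or exact for 5 against 5 mice), with log2 CPM at a prior count of 2. Relations across mice permuted mice within groups, and 1e-05 is the smallest p they allow. On simulated line effects in 14672 genes, the test recovered 82.3% of changes of 0.5 log2 units and 94.2% of those of 1. The simulated mice were independent, with 200 genes changed and no siblings or shared differences in tissue makeup. These rates cover genes of all levels, so they need not hold for the real mice or for the scarce receptors. No pair of mice in a group differed by less than sampling noise (chi-square per gene 17.2 to 49.1).

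The receptors, the lists and the tests were chosen with earlier results of these data known. Text names the receptors, the list genes past the threshold (at most 4 per list, or the 2 with the smallest p) and the 5 genes most like Drd1 and Drd2. Alternatives were RLE scaling, other filters, DESeq2 1.42.0, the likelihood-ratio test with robust dispersions, limma 3.58.1 voom with family as a block, the cortical marker covariate and leaving out each mouse. Ppp1ca and Dlk1 were listed at 0, Slc6a3 was under the filter, and Gpr52 and Slc18a3 were not analysed here. A listed 0 need not mean that the gene is silent in this tissue, and its source was not tested. One further marker is not reported here by name.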

Additional observations from a re-analysis of the deposited data

How the results depend on the processing

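With the cortical marker level in the fit, the Drd5 line effect was 0.34 (FDR 0.22, no longer past the threshold), the Drd3 line effect was -0.018 and the Drd3 interaction 0.18, both with the opposite sign; the cause was not tested. The likelihood-ratio test gave a Drd3 interaction of 0.070. Relative to markers, Drd1 against direct pathway markers was -0.18 (unadjusted permutation p = 0.030). Drd2 was -0.0080 with mice of the same parents averaged and -0.069 against indirect pathway markers. The labels give no replicate number shared across groups, so no fit with such a block was run, and pairing rested on the parents named in the labels. The family block in limma-voom gave 0.54 for Drd5 (FDR 0.024).

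Leaving out each mouse in turn, the Drd5 line effect ran from 0.52 to 0.61 and stayed past the threshold, the Drd3 interaction from -0.22 to 0.25, and Drd2 relative to shared markers from -0.0053 to 0.022. The number of genes called for the line effect was 2149, but 403 with the cortical covariate and 1381 to 2535 when a mouse was left out, the lowest being without High-Active amphetamine replicate 2 (1381), High-Active saline replicate 4 (1405) or Control saline replicate 5 (1400). For amphetamine it was 0, against 33, 128, 339, 3 and 20 without High-Active saline replicate 1, Control saline replicate 1, High-Active amphetamine replicate 2, Control amphetamine replicate 5 or Control saline replicate 5, and for the interaction 0 to 1, the 1 without Control saline replicate 1. In amphetamine mice 193 genes differed between the lines, against 117 in a fit of those 10 mice alone. Drd3 and Drd5 rest on 28 to 268 reads per mouse, with a counting error of 11.0% and 8.91%, below the spread between mice.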
